A study of Mus musculus with 52 samples.

Results

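Genes of mitochondrial fatty acid oxidation were followed in mouse bone marrow stromal cell cultures that were placed in bone-forming medium and exposed to nuclear receptor ligands or environmental chemicals. The set was a list of 34 genes, and each was read from a probe set annotated to its symbol alone, taking the brightest on average where a gene had more than 1. Of the 34 genes, 31 had such a probe set, among 22180 genes of the array that did. Cpt1b, the muscle form of carnitine palmitoyltransferase, Acsl3, an acyl-CoA synthetase, and Echdc1, a hydratase-like enzyme that removes ethylmalonyl-CoA, were carried only by probe sets shared with other genes and were not analysed here. All 31 passed the filter on low values, which asked for a level above 4.05, the median of the table, on at least 4 of the 52 arrays and left 14911 genes for testing.

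The measurements came from Affymetrix Mouse Gene 2.0 ST arrays, which read transcripts with short probes and report a brightness for each probe set. The cultures came from the marrow of female C57BL/6J mice aged 8 weeks, with the cells of 2 to 4 animals pooled, the medium changed 5 days after plating and induction at day 7. Treated cultures received Rosi (rosiglitazone, 100 nM), LG268 (LG100268, 100 nM), TBT (tributyltin, 80 nM), TPhP (triphenyl phosphate) or MEHP (mono-2-ethylhexyl phthalate), control cultures received the vehicle DMSO at 0.1%, and all of them shared a medium with ascorbate, β-glycerol phosphate, insulin and dexamethasone. RNA was taken 1 or 4 days after induction, and naive cells were harvested before the change to that medium, which gave 13 groups of 4 arrays. Doses of TPhP and MEHP are absent from the labels. Rosi is an agonist of PPARγ, the receptor that drives fat cell formation. LG268 is an agonist of RXR, the partner with which PPARs bind DNA. TBT is an organotin known to activate RXR and PPARγ, TPhP is a flame retardant and MEHP is a metabolite of a phthalate plasticiser. The sample titles carry the numbers 12, 15, 19 and 20, once in every group, and these were read as 4 pools of animals, and all values of single arrays below are in that order. Because whole cultures were lysed, fewer cells of a type and less RNA per cell cannot be told apart.

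Fatty acid oxidation begins when an acyl-CoA synthetase joins a fatty acid to coenzyme A. The carnitine shuttle then carries the acyl group into the mitochondrial matrix, where CPT1 on the outer membrane sets the rate and malonyl-CoA inhibits it. In the matrix a cycle of dehydrogenation, hydration, a second dehydrogenation and thiolysis shortens the chain and releases acetyl-CoA, while the electron transfer flavoprotein passes electrons to the respiratory chain. PPARs are known to induce many of these genes in liver, heart and fat, and white and brown fat cells hold more of this machinery than the precursors they come from.

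Promoter sequence was looked up for the members because PPAR and RXR bind DNA as a pair at a repeat of the half-site AGGTCA with 1 base between the copies. Windows of 300 bases (250 before and 50 after each start) from RefSeq, build GRCm38.p6, were given for 29 of the 34 listed genes. Both strands were searched, with at most 1 mismatch in each half-site. Only Etfa held a match, which is 3.45% of the members with a window, against 754 of 27025 genes (2.79%). The match says only that these letters occur, and no match in a window says nothing about the factor. The stretch before the Etfa start is shown because it holds the members' only match (in capitals). Hadha and Hadhb, the subunits of 1 enzyme, start 273 bases apart and point away from each other, and the 228 bases between them that lie in the upstream windows of both genes are shown. This stretch has 57.0% G and C, and it holds no match. In all, 5 listed genes (Hadha, Hadhb, Etfdh, Acad10 and Echdc1) had a window overlapping that of a gene transcribed the other way, as did 10.9% of the genes with a window.
Etfa, chr9:55512244-55512393, minus strand, 5′ to 3′ towards the gene:
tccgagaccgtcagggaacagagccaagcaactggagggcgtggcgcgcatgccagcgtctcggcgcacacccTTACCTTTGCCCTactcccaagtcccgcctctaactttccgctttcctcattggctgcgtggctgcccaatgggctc
Hadha and Hadhb, chr5:30155003-30155230, plus strand, 5′ to 3′ towards Hadhb:
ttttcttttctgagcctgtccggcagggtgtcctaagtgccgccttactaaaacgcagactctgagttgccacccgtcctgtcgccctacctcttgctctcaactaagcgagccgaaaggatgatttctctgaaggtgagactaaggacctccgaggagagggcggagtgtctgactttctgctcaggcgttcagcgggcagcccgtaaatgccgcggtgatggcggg

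Array medians ran from 3.97 to 4.15, and precision is limited by having 4 arrays a group. The stromal label held, as all 10 stromal markers lay above 4.05 on all 52 arrays, but so did the 7 macrophage markers, so the cultures were not stromal cells alone. The neutrophil markers S100a8, S100a9 and Ngp, the B cell markers Cd79a and Cd79b and the endothelial markers Pecam1, Cdh5 and Kdr did so too. Of the same lists, Ltf did so on 51 arrays, Camp on 47, Ms4a1 on 39 and Tek on 27. Of 5 muscle markers, Acta1 and Tnnt3 were above 4.05 on all 52 arrays, Myh6 on 28, Ckm on 14 and Myh7 on 0. Erythroid markers were not analysed here. Some arrays stood apart at day 4. The Rosi array of pool 15 had a mean of 8.79 over the 31 genes, against 9.15, 9.15 and 9.21 on the other Rosi arrays. The same array had a mean of 9.54 over 9 adipocyte markers, against 10.27, 10.24 and 10.20 on the other Rosi arrays. Its mean over 7 macrophage markers was 10.06, against 9.01, 8.79 and 8.74 on the others. Leaving that array out, a choice made after seeing the data, left the number of members that differed from vehicle at 27. With TBT at day 4, pools 12 and 15 both lay below pools 19 and 20 in 22 of 31 members. The count was 23 with TPhP, 23 with MEHP, 20 with LG268, 9 with Rosi and 11 in vehicle. Both lay above pools 19 and 20 in 2, 3, 3, 4, 3 and 10 members in the same sequence. The order was not counted over all genes, so it cannot be read as particular to the members.

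At day 4 most of the oxidation genes were higher with Rosi, TBT, TPhP and MEHP, and few were higher with LG268. The words rose and fell are used where limma's adjusted p, over all 14911 genes, was under 0.05. With Rosi 26 of the 31 rose and 1 fell, where 49.1% of all genes tested were called in either direction. With TBT 26 rose and 0 fell (20.1% of all genes called), with TPhP 24 rose and 0 fell (18.9%), and with MEHP 24 rose and 1 fell (23.8%). LG268 raised 6 and lowered 0 (6.47% of all genes called). The median difference of the 31 on the log2 scale was 1.68 with Rosi, 0.29 with LG268, 0.83 with TBT, 0.90 with TPhP and 1.04 with MEHP, while the median of all genes lay between -0.05 and -0.02. These comparisons share the 4 vehicle arrays of the day. With the pool as a block, 27 of the 31 rose with TBT. The LG268 count was 2 without pool 15, 2 without pool 19 and 2 without pool 20, and 3 when only the LG268 and vehicle arrays were fitted. It was 7 without pool 12 and 9 with the pool as a block.

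**Figure D1:**
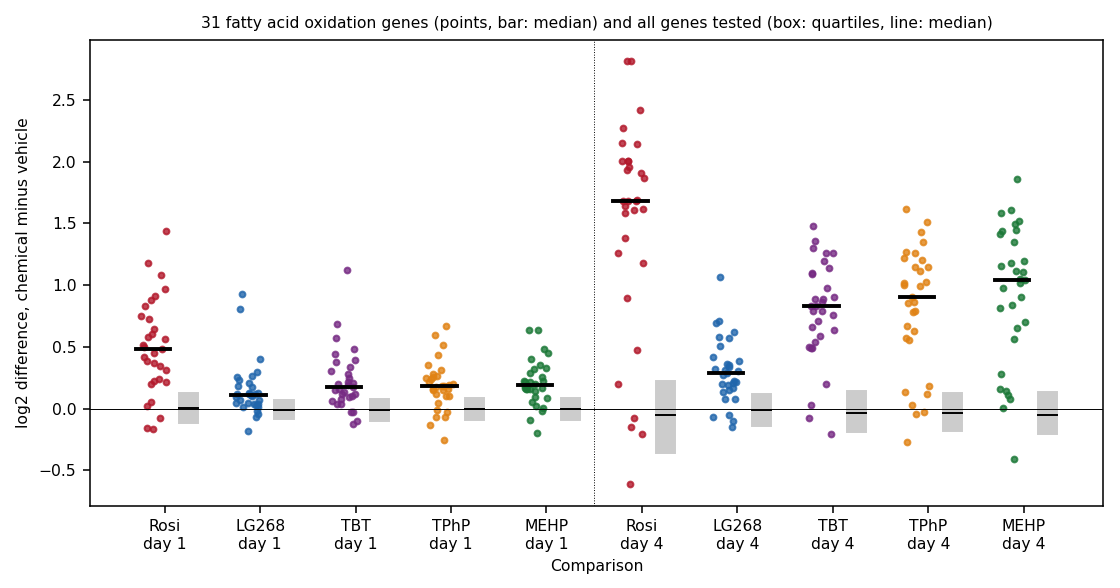
Differences from vehicle of the same day (vertical axis, log2) for the 31 oxidation genes as points with a bar at their median, beside all 14911 genes as boxes of quartiles, for the 5 chemicals at day 1 and day 4. The median of the 31 stands at 1.68 with Rosi at day 4, against an all-gene median of -0.05.

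At day 1 the response was smaller, and most members that rose did so with Rosi. With Rosi 14 of 31 rose and 0 fell (7.25% of all genes called), with a median of 0.48. LG268 raised 2, Cpt1a and Acsl4 (0.241% of all genes called). TBT raised 3, which were Cpt1a, Acaa2 and Acsl4 (0.543%). MEHP raised 1, Cpt1a (0.523%), and with TPhP 0 members were called (0.215%), although 4 had an unadjusted p under 0.05. With the pool as a block, Cpt1a was called with TPhP and 2 members were called with MEHP, Acaa2 being the other. When only the arrays compared were fitted, the counts were 4 with TPhP and 6 with MEHP. Leaving out pool 20 gave 8 members with Rosi, and leaving out pool 19 gave 9. The Rosi count was 18 with the pool as a block (1370 of 14911 genes called). It was 21 when only the Rosi and vehicle arrays were fitted (1498 of 14911 genes called). Without pool 15 or pool 19 only 1 member was called with LG268. Without pool 15, 19 or 20 only 1 was called with TBT, and 0 with MEHP.

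**Figure D2:**
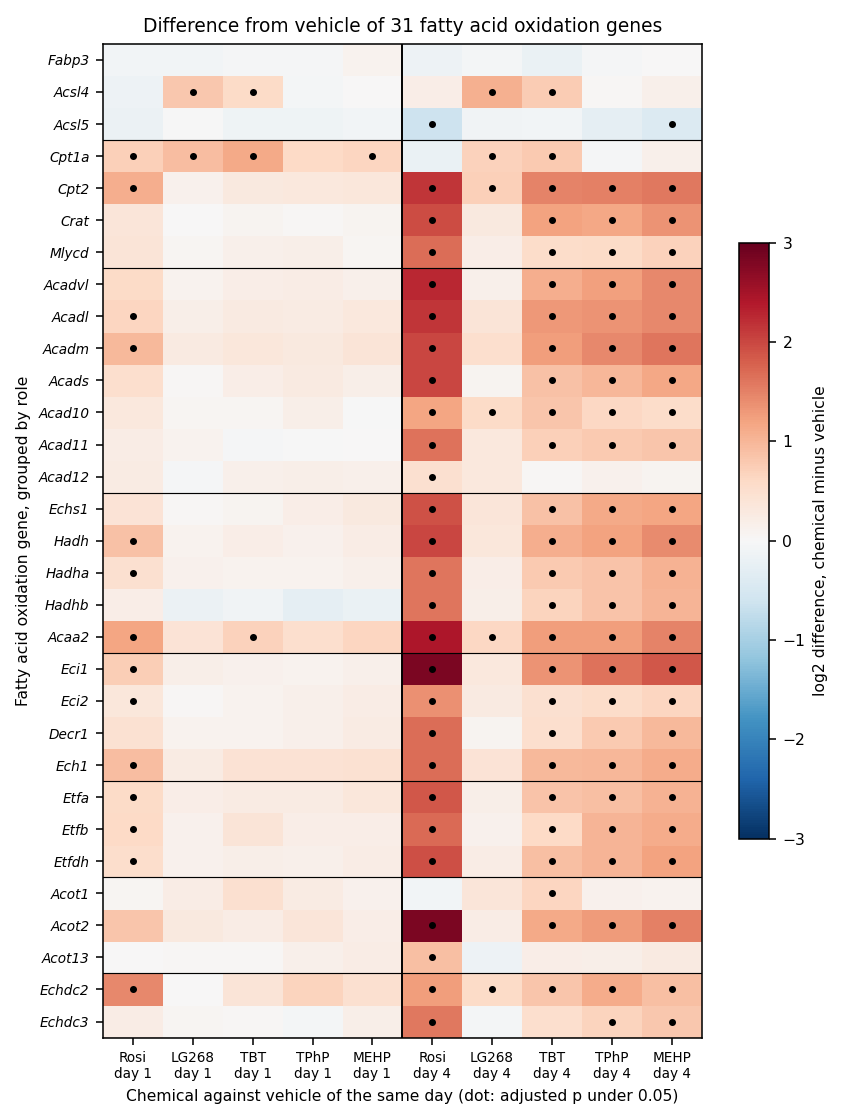
Difference from vehicle (colour, log2) of each of the 31 genes (down, grouped by role) with each chemical at day 1 and day 4 (across), where a dot marks an adjusted p under 0.05. The day 4 columns of Rosi, TBT, TPhP and MEHP are dotted in 27, 26, 24 and 25 genes, and the LG268 column in 6.

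Of the 31 genes, 23 rose at day 4 with each of Rosi, TBT, TPhP and MEHP. They were the acyl-CoA dehydrogenases Acadl, Acadm, Acads, Acadvl, Acad10 and Acad11, all 5 enzymes of hydration to thiolysis, all 4 auxiliary enzymes, all 3 flavoprotein genes, Cpt2, Crat, Mlycd, Acot2 and Echdc2. When only the arrays compared were fitted, some of these calls were lost. Hadhb, Decr1, Acot2, Acad10, Acad11, Mlycd and Echdc2 then each missed the threshold with TBT, TPhP or MEHP. The mean was highest in day 4 Rosi cultures, over all 13 groups, for 25 genes. The exceptions were Cpt1a, Acot1, Fabp3, Acsl4, Acsl5 and Echdc2. Of the 14 genes that rose with Rosi at day 1, 13 also rose at day 4, and Cpt1a was the exception. Fabp3 was not called with any chemical on either day.

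Acsl4, a synthetase that prefers arachidonic acid, rose with LG268 and TBT on both days and with no other chemical. At day 1 it read 9.76, 9.52, 9.35 and 9.35 with LG268 and 9.50, 9.39, 9.19 and 8.98 with TBT, against 8.76, 8.77, 8.68 and 8.56 in vehicle. At day 4 it read 9.74, 9.58, 9.49 and 9.53 with LG268 and 9.58, 9.30, 9.17 and 9.07 with TBT, against 8.86, 8.69, 8.33 and 8.20 in vehicle. In all 4 of these pairings the groups did not overlap. The differences were 0.80 ± 0.14 and 0.57 ± 0.14 at day 1 (log2 ± SE, adjusted p = 0.000807 with LG268 and 0.0338 with TBT). At day 4 they were 1.07 ± 0.14 with LG268 (adjusted p = 7.95e-07) and 0.76 ± 0.14 with TBT (adjusted p = 8.48e-05). Rosi cultures read 8.32, 8.87, 8.82 and 8.86 at day 4, a range that overlapped vehicle, with a difference of 0.20 ± 0.14 (adjusted p = 0.247). Each pool was also left out alone. The day 1 call of Acsl4 with LG268 was lost without pools 15 and 19 (adjusted p = 0.0562 to 0.0611) and the one with TBT without pools 15, 19 and 20 (adjusted p = 0.0948 to 0.468), and the day 4 calls were kept.

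Acsl5, a mitochondrial and endoplasmic reticulum synthetase, was the only member that fell with a chemical. It read 8.47, 9.04, 8.42 and 8.33 in Rosi cultures at day 4, against 9.34, 9.38, 8.98 and 9.02 in vehicle. The Rosi array of pool 15 lay inside the vehicle range and the other 3 lay below it. The difference was -0.61 ± 0.15 with Rosi (adjusted p = 0.000478). With MEHP Acsl5 read 9.07, 9.15, 8.30 and 8.58, a difference of -0.41 ± 0.15 (adjusted p = 0.037) that was lost without pools 12, 19 and 20 (adjusted p = 0.0718 to 0.269). With the pool as a block Acsl5 was also called with TPhP (difference -0.27, adjusted p = 0.047). Fabp3, the heart form of the fatty acid binding proteins that ferry lipid through the cytosol, read 8.30, 8.21, 8.14 and 8.06 in Rosi cultures at day 4, against 8.41, 8.44, 8.27 and 8.19 in vehicle. These ranges overlapped, and the difference was -0.15 ± 0.10 (adjusted p = 0.222, 95% interval -0.36 to 0.05). A second probe set of Fabp3 lay near background and was not called.

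Cpt1a, the outer membrane palmitoyltransferase that limits the rate of entry, was the member raised by most chemicals at day 1. It read 8.70, 8.75, 8.92 and 8.77 with Rosi at day 1, against 7.96, 8.16, 8.08 and 8.04 in vehicle. LG268 cultures read 9.07, 9.0, 8.98 and 8.91 and TBT cultures read 9.29, 9.24, 9.25 and 8.95. TPhP cultures read 8.62, 8.70, 8.78 and 8.53 and MEHP cultures read 8.77, 8.71, 8.79 and 8.50. With each of the 5 chemicals all 4 arrays lay above all vehicle arrays. The differences were 0.73 ± 0.15 with Rosi, 0.93 ± 0.15 with LG268, 1.13 ± 0.15 with TBT and 0.63 ± 0.15 with MEHP (adjusted p = 0.000714, 0.000282, 3.14e-06 and 0.0273). The MEHP call was lost without pools 15, 19 and 20 (adjusted p = 0.183 to 0.341). With TPhP the difference of 0.60 ± 0.15 missed the threshold (adjusted p = 0.0751) and passed it with the pool as a block (adjusted p = 0.00942).

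By day 4 Cpt1a was higher with LG268 and TBT only. LG268 cultures read 9.07, 9.0, 9.14 and 9.08 and TBT cultures read 9.32, 9.19, 9.11 and 9.06, against 8.88, 8.25, 8.21 and 8.19 in vehicle. Both lay above every vehicle array, although vehicle pool 12 stood far above the other vehicle pools. The differences were 0.69 ± 0.15 with LG268 (adjusted p = 0.00219), a call lost without pools 19 and 20 (adjusted p = 0.0508 to 0.0537), and 0.79 ± 0.15 with TBT (adjusted p = 0.000129). Rosi cultures read 8.15, 8.52, 8.02 and 8.00 at day 4 and overlapped vehicle. The difference with Rosi was -0.21 ± 0.15 (adjusted p = 0.255, 95% interval -0.51 to 0.09). With TPhP it was -0.04 ± 0.15 and with MEHP 0.16 ± 0.15, neither past the threshold. The fall in the Rosi difference between the days was tested directly and came to -0.93 ± 0.21 (adjusted p = 0.000611).

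**Figure D3:**
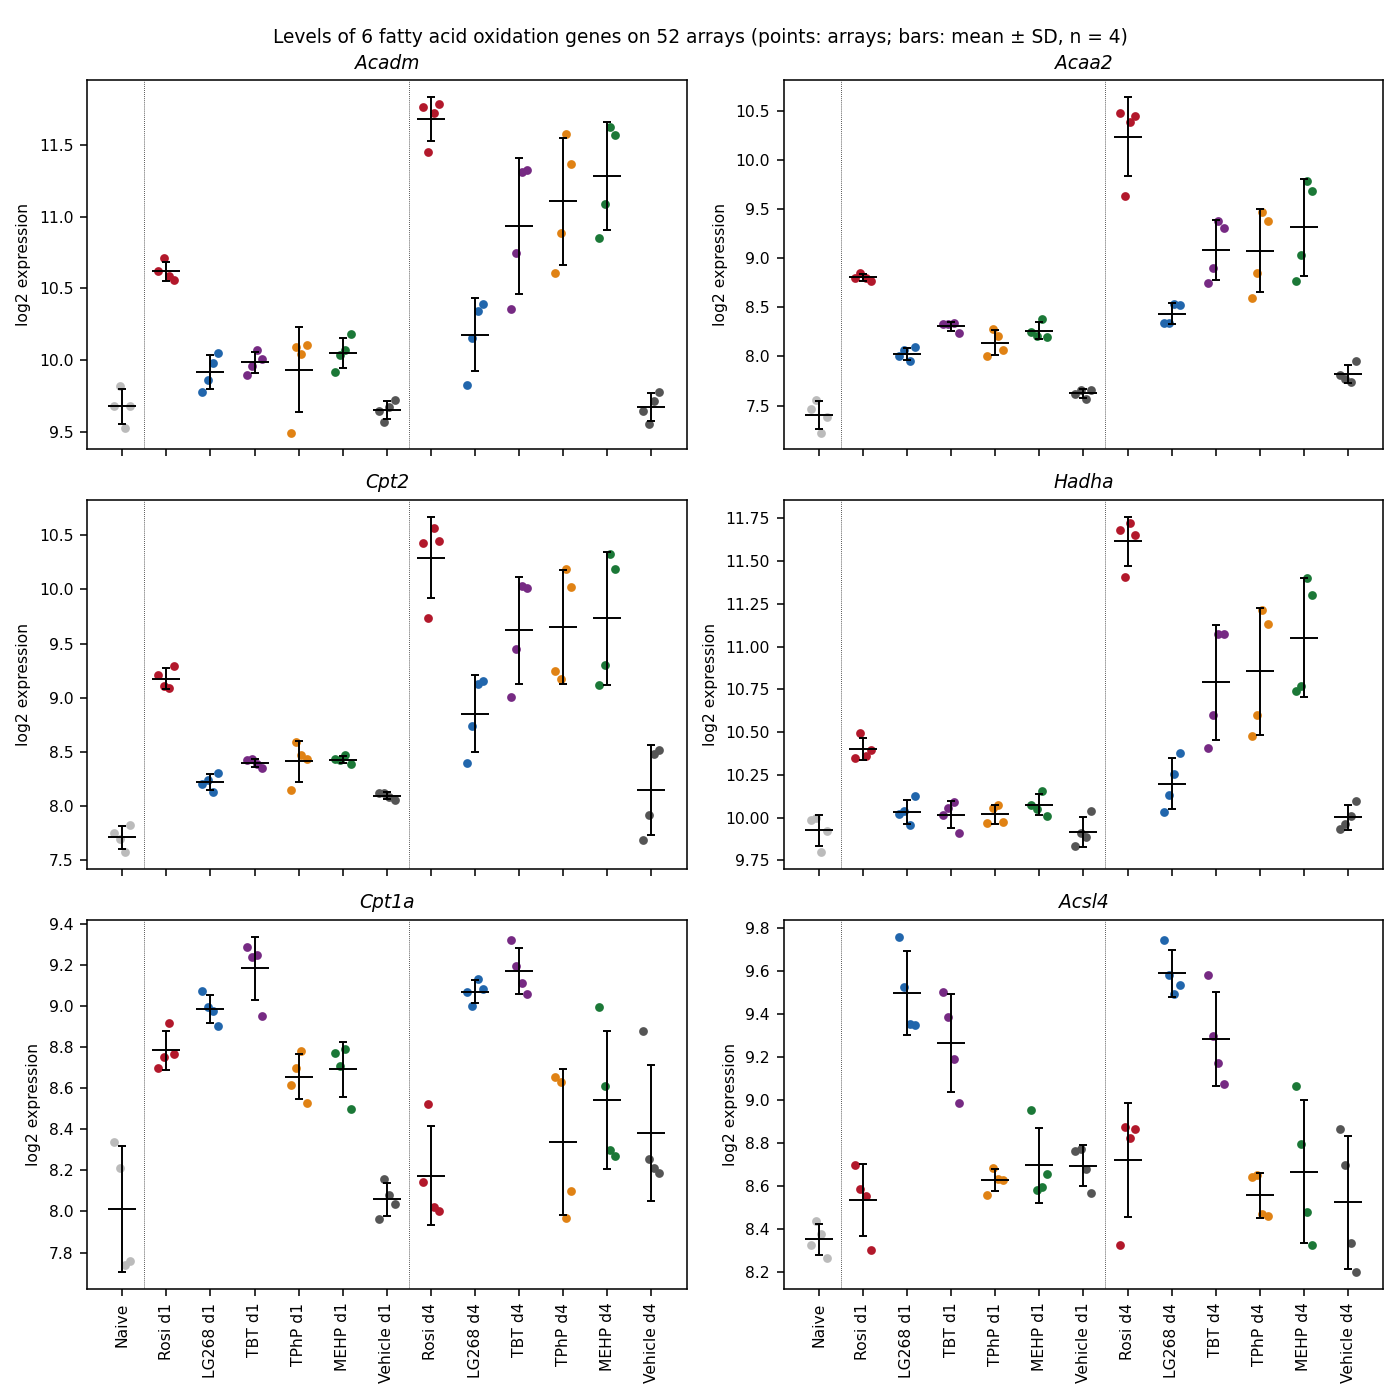
Levels (vertical axis, log2) of Acadm, Acaa2, Cpt2, Hadha, Cpt1a and Acsl4 on all 52 arrays by group (horizontal axis), with points for arrays and bars for mean ± SD (n = 4). Acadm, Acaa2, Cpt2 and Hadha peak in day 4 Rosi cultures, whereas Acsl4 is highest with LG268, and Cpt1a with TBT at day 1.

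The rest of the shuttle rose at day 4. Cpt2, the inner membrane palmitoyltransferase that returns the acyl group to coenzyme A, read 10.43, 9.74, 10.57 and 10.44 with Rosi, against 7.68, 7.92, 8.48 and 8.52 in vehicle. TBT cultures read 9.0, 9.45, 10.03 and 10.01, TPhP cultures read 9.24, 9.17, 10.19 and 10.02 and MEHP cultures read 9.11, 9.30, 10.33 and 10.19. These 4 groups lay wholly above vehicle, whereas LG268 cultures, at 8.40, 8.74, 9.12 and 9.15, overlapped it. Vehicle itself was lower in pools 12 and 15 than in pools 19 and 20. The differences were 2.15 ± 0.23 with Rosi, 0.70 ± 0.23 with LG268 (adjusted p = 0.0492, lost without pools 12, 15, 19 and 20 at adjusted p = 0.0638 to 0.205), 1.48 ± 0.23 with TBT, 1.51 ± 0.23 with TPhP and 1.59 ± 0.23 with MEHP. Cpt2 had already risen by 1.08 with Rosi at day 1 (adjusted p = 0.000877), where it read 9.21, 9.11, 9.09 and 9.30, against 8.12, 8.12, 8.09 and 8.05 in vehicle.

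Crat, which exchanges short acyl groups between carnitine and coenzyme A, averaged 10.85 ± 0.34 with Rosi at day 4 and 8.89 ± 0.09 in vehicle (SD, n = 4 each), a difference of 1.96 ± 0.21. Its differences were 1.20 ± 0.21 with TBT, 1.15 ± 0.21 with TPhP and 1.35 ± 0.21 with MEHP, all past the threshold. A second Crat probe set, with a lower mean, differed by 1.03 ± 0.18 with Rosi and 0.58 ± 0.18 with MEHP, both past the threshold, and was not called with TBT or TPhP. The size of the Crat rise therefore depended on the probe set. Mlycd, malonyl-CoA decarboxylase, removes the inhibitor of CPT1. It averaged 7.67 ± 0.29 with Rosi at day 4 and 5.99 ± 0.15 in vehicle (SD, n = 4 each), a difference of 1.68 ± 0.15. Its rise of 0.54 with TBT was lost without pools 15, 19 and 20 (adjusted p = 0.0504 to 0.139) and that of 0.57 with TPhP without pools 19 and 20 (adjusted p = 0.0932 to 0.134), and the rise of 0.70 with MEHP was kept.

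The acyl-CoA dehydrogenases catalyse the first oxidation of each cycle, and they differ in the chain length they accept. All 7 rose with Rosi at day 4, and 6 of 7 rose with each of TBT, TPhP and MEHP, Acad12 being the exception. Acadm, the medium-chain enzyme, read 11.76, 11.45, 11.72 and 11.78 with Rosi, against 9.65, 9.55, 9.72 and 9.78 in vehicle. It read 10.36, 10.74, 11.31 and 11.32 with TBT, 10.61, 10.88, 11.57 and 11.36 with TPhP and 10.85, 11.09, 11.63 and 11.57 with MEHP. Pools 19 and 20 were the high ones with those 3 chemicals, and with Rosi the pools differed little. The differences were 2.00 ± 0.17 with Rosi, 1.26 ± 0.17 with TBT, 1.43 ± 0.17 with TPhP and 1.61 ± 0.17 with MEHP (adjusted p = 5.38e-13, 5.02e-07, 2.68e-08 and 1.8e-09). LG268 cultures read 9.83, 10.15, 10.34 and 10.39, all above vehicle, and the difference of 0.51 ± 0.17 passed the threshold only with the pool as a block (adjusted p = 0.0659 without it and 0.012 with it). At day 1 Acadm read 10.62, 10.71, 10.59 and 10.56 with Rosi, against 9.65, 9.57, 9.67 and 9.72 in vehicle, a rise of 0.96 ± 0.17 (adjusted p = 9.95e-05).

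Acadl and Acadvl, the long-chain and very long-chain enzymes of the cycle, rose with the same 4 chemicals. Acadl read 11.45, 11.08, 11.42 and 11.46 with Rosi at day 4, against 9.35, 9.24, 9.07 and 9.20 in vehicle. It read 10.04, 10.34, 10.86 and 10.80 with TBT, 10.01, 10.33, 10.98 and 10.93 with TPhP and 10.22, 10.44, 11.10 and 10.84 with MEHP. All of these arrays lay above the highest vehicle array, and the differences were 2.14 ± 0.16, 1.30 ± 0.16, 1.35 ± 0.16 and 1.44 ± 0.16. Acadl with TBT and with TPhP had the smallest adjusted p among the members (4.12e-08 and 1.28e-08). Acadl also rose with Rosi at day 1, by 0.65 ± 0.16, a call lost without pool 20 (adjusted p = 0.0763). Acadvl read 10.24, 9.53, 10.25 and 10.26 with Rosi at day 4, against 7.51, 7.69, 7.96 and 8.04 in vehicle. The difference was 2.27 ± 0.20, and it was 1.44 ± 0.20 with MEHP, 1.22 ± 0.20 with TPhP and 1.09 ± 0.20 with TBT. Acads, the short-chain enzyme, differed by 2.01 ± 0.18 with Rosi at day 4. At day 1 the Rosi differences of Acads (0.50 ± 0.18) and Acadvl (0.57 ± 0.20) passed the threshold only with the pool as a block (adjusted p = 0.023 and 0.00975, against 0.0969 and 0.0763).

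The other dehydrogenases have less well known substrates. Acad10 read 6.40, 6.08, 6.43 and 6.36 with Rosi at day 4, 5.53, 5.79, 5.71 and 5.85 with LG268 and 5.07, 4.75, 5.32 and 5.41 in vehicle. Both treated groups lay above vehicle, by 1.18 ± 0.15 with Rosi and 0.58 ± 0.15 with LG268 (adjusted p = 0.0136, lost without pool 15 at adjusted p = 0.192). With MEHP Acad10 rose by 0.56 ± 0.15, a call lost without pool 12 (adjusted p = 0.0592). Acad11, which acts on long acyl chains, averaged 9.33 ± 0.40 with Rosi and 7.69 ± 0.34 in vehicle (SD, n = 4 each), a difference of 1.64 ± 0.20. Its rise of 0.71 with TBT was lost without pools 15, 19 and 20 (adjusted p = 0.0531 to 0.0706) and that of 0.78 with TPhP without pool 19 (adjusted p = 0.0606). Acad12 lay close to background (mean 4.66 over all arrays). In the main fit it rose with Rosi alone, by 0.48 ± 0.12 (adjusted p = 0.000998).

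The 5 enzymes that hydrate, oxidise again and cleave the chain all rose with Rosi, TBT, TPhP and MEHP at day 4. Acaa2, the thiolase of the mitochondrial matrix, read 10.48, 9.63, 10.38 and 10.45 with Rosi, against 7.81, 7.77, 7.74 and 7.95 in vehicle. The Rosi array of pool 15 was the low one, yet it lay above every array of the other day 4 groups except 2 of the MEHP arrays. LG268 cultures read 8.34, 8.34, 8.54 and 8.52, TBT cultures 8.75, 8.89, 9.38 and 9.30, TPhP cultures 8.60, 8.85, 9.47 and 9.38 and MEHP cultures 8.77, 9.03, 9.78 and 9.68, all above vehicle. The differences were 2.42 ± 0.17 with Rosi, 0.62 ± 0.17 with LG268 (adjusted p = 0.0161, lost without pools 15, 19 and 20 at adjusted p = 0.0618 to 0.105), 1.26 ± 0.17 with TBT, 1.26 ± 0.17 with TPhP and 1.50 ± 0.17 with MEHP. At day 1 it read 8.79, 8.85, 8.80 and 8.77 with Rosi and 8.33, 8.33, 8.34 and 8.24 with TBT, against 7.62, 7.65, 7.56 and 7.66 in vehicle. Those differences were 1.18 ± 0.17 (adjusted p = 1.67e-06) and 0.68 ± 0.17 (adjusted p = 0.0339, lost without pools 12, 15, 19 and 20 at adjusted p = 0.0642 to 0.359). With MEHP at day 1 the difference of 0.63 ± 0.17 passed only with the pool as a block (adjusted p = 0.0234, against 0.0686).

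Hadha and Hadhb encode the α and β subunits of the trifunctional protein, which carries out the last 3 steps for long chains, and the stretch printed above lies between their starts. Hadha read 11.68, 11.41, 11.72 and 11.65 with Rosi at day 4, against 9.93, 9.96, 10.01 and 10.10 in vehicle. Hadhb read 5.92, 5.40, 5.07 and 5.88 with Rosi, against 4.21, 3.98, 3.85 and 3.80 in vehicle, where 3 of 4 arrays lay under 4.05. The groups of neither gene overlapped, but the Hadhb probe set lay near background, with 33 of 52 arrays above 4.05, so its size is uncertain. The differences of Hadha and Hadhb were 1.62 ± 0.13 and 1.61 ± 0.19 with Rosi. With TBT they were 0.79 ± 0.13 and 0.66 ± 0.19, with TPhP 0.86 ± 0.13 and 0.86 ± 0.19, and with MEHP 1.05 ± 0.13 and 1.02 ± 0.19. The Hadhb call with TBT was lost without pools 19 and 20 (adjusted p = 0.0672 to 0.0694) and the one with TPhP without pool 19 (adjusted p = 0.0731). At day 1 Hadha rose with Rosi by 0.48 ± 0.13, a call lost without pools 15, 19 and 20 (adjusted p = 0.0606 to 0.118), and Hadhb differed by 0.20 ± 0.19 (adjusted p = 0.682).

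Hadh, the short-chain hydroxyacyl-CoA dehydrogenase, read 10.08, 9.91, 9.93 and 10.13 with Rosi at day 1, against 9.06, 9.27, 9.04 and 9.16 in vehicle. All 4 Rosi arrays were above vehicle, and the rise was 0.88 ± 0.18 (adjusted p = 0.000624). At day 4 Hadh read 11.50, 10.93, 11.46 and 11.42 with Rosi, against 9.17, 9.29, 9.36 and 9.47 in vehicle, with a difference of 2.00 ± 0.18. Echs1, the short-chain enoyl-CoA hydratase, read 10.24, 9.83, 10.27 and 10.36 with Rosi and 9.13, 9.02, 9.84 and 9.66 with TPhP, against 8.08, 8.35, 8.35 and 8.30 in vehicle. It rose by 1.91 ± 0.15 with Rosi, 1.18 ± 0.15 with MEHP, 1.14 ± 0.15 with TPhP and 0.89 ± 0.15 with TBT, and its day 1 Rosi difference of 0.42 ± 0.15 missed the threshold (adjusted p = 0.1).

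Unsaturated fatty acids need auxiliary enzymes that move or reduce their double bonds, and all 4 rose with Rosi, TBT, TPhP and MEHP at day 4. Eci1, an enoyl-CoA isomerase, had the largest Rosi difference of the 31. It read 10.36, 9.68, 10.37 and 10.36 with Rosi, against 7.25, 7.40, 7.38 and 7.48 in vehicle, and every Rosi array was far above vehicle. The difference was 2.82 ± 0.22, which is 7.04-fold, and at day 1 it was 0.75 ± 0.22, a call lost without pools 15, 19 and 20 (adjusted p = 0.111 to 0.146). With TBT at day 4 Eci1 read 8.14, 8.52, 9.15 and 9.11, with TPhP 8.08, 8.78, 9.68 and 9.43 and with MEHP 8.62, 8.92, 9.79 and 9.63. Pool 12 was the lowest of the 4 with each of these, and the differences were 1.35 ± 0.22, 1.62 ± 0.22 and 1.86 ± 0.22. Eci2, a second isomerase found in mitochondria and peroxisomes, read 8.61, 8.39, 8.66 and 8.79 with Rosi, against 7.16, 7.15, 7.38 and 7.23 in vehicle, a smaller rise of 1.38 ± 0.10 with a small spread. Its day 1 rise of 0.35 ± 0.10 was lost without pools 12, 19 and 20 (adjusted p = 0.0705 to 0.429). Ech1, which isomerises dienoyl-CoA, read 9.87, 9.93, 9.78 and 9.97 with Rosi at day 1, against 8.98, 9.01, 8.89 and 9.01 in vehicle. The rise was 0.92 ± 0.13 at day 1 and 1.68 ± 0.13 at day 4, when Ech1 read 10.96, 10.71, 11.12 and 11.09 with Rosi, against 9.35, 9.30, 9.29 and 9.22 in vehicle. Decr1, the dienoyl-CoA reductase, rose by 1.68 ± 0.16 with Rosi at day 4, and its TBT rise of 0.50 ± 0.16 was lost without pools 15, 19 and 20 (adjusted p = 0.0522 to 0.21). Ech1 (0.41) and Eci2 (0.28) passed the threshold with LG268 only with the pool as a block (adjusted p = 0.0313 and 0.0352, against 0.0536 and 0.103).

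Electrons from the dehydrogenases pass through the electron transfer flavoprotein, made of Etfa and Etfb, to the oxidoreductase Etfdh and on to ubiquinone. All 3 genes rose with Rosi on both days and with TBT, TPhP and MEHP at day 4. Etfa had the smallest adjusted p of all members with Rosi at day 4. It read 10.30, 9.91, 10.23 and 10.32 with Rosi, 8.79, 9.09, 9.47 and 9.37 with TBT, 9.15, 9.06, 9.71 and 9.50 with MEHP and 8.34, 8.36, 8.25 and 8.33 in vehicle. Vehicle arrays differed from each other by little, and every treated array lay above them. The differences were 1.87 ± 0.13 with Rosi (adjusted p = 1.68e-15), 0.86 ± 0.13 with TBT and 1.04 ± 0.13 with MEHP. Etfdh read 10.91, 10.32, 10.92 and 10.85 with Rosi, against 8.73, 8.70, 8.90 and 8.95 in vehicle, a difference of 1.93 ± 0.15. Etfb rose by 1.69 ± 0.16 with Rosi and by 0.59 ± 0.16 with TBT, and the TBT call was lost without pool 20 (adjusted p = 0.118). At day 1 with Rosi the rises were 0.58 for Etfa, 0.60 for Etfb and 0.52 for Etfdh. The Etfb call was lost without pools 12, 19 and 20 (adjusted p = 0.0601 to 0.0896) and the Etfdh call without pools 12, 15, 19 and 20 (adjusted p = 0.0641 to 0.154).

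Acyl-CoA thioesterases release the fatty acid from coenzyme A again, and 3 were measured here. Acot2, of the mitochondrial matrix, read 10.45, 11.14, 11.51 and 12.07 with Rosi at day 4, against 8.69, 8.18, 8.45 and 8.61 in vehicle. The Rosi arrays spread widely but lay above vehicle, and the difference was 2.81 ± 0.27. The rises were 1.14 ± 0.27 with TBT, 1.27 ± 0.27 with TPhP (lost without pool 19 at adjusted p = 0.0574) and 1.52 ± 0.27 with MEHP. Acot1, its cytosolic neighbour on chromosome 12, read 4.40, 4.26, 4.06 and 4.90 with Rosi, against 4.53, 3.97, 4.90 and 4.54 in vehicle. These overlapped, and the difference was -0.08 ± 0.20 (adjusted p = 0.783). Acot1 rose only with TBT at day 4, where it read 5.68, 4.86, 4.55 and 5.39, a difference of 0.64 ± 0.20 (adjusted p = 0.0201) that held in 3 of 4 pools and was lost without pools 12, 15 and 20 (adjusted p = 0.114 to 0.162). Acot1 and Acot2 are near-identical copies and Acot1 lay near background, so the split of signal between their probe sets is uncertain. Acot13, which acts on medium and long chains, rose with Rosi alone in the main fit, by 0.89 ± 0.13 (adjusted p = 3.54e-07). With the pool as a block, Acot2 was also called with Rosi at day 1 (difference 0.83, adjusted p = 0.0336, against 0.0519), as was Decr1 (difference 0.45, adjusted p = 0.0212, against 0.0819).

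Echdc2, an enoyl-CoA hydratase domain protein of mitochondria, had the largest Rosi difference of the members at day 1 and its highest mean there. It read 8.13, 8.18, 8.04 and 8.31 with Rosi at day 1, against 6.82, 6.73, 6.63 and 6.74 in vehicle. The groups were well apart, with a rise of 1.44 ± 0.17 (2.71-fold, adjusted p = 4.29e-08). At day 4 it read 7.99, 7.59, 7.86 and 7.68 with Rosi and 6.81, 7.29, 7.24 and 7.03 with LG268, against 5.67, 6.76, 6.76 and 6.89 in vehicle. Vehicle pool 12 was far below the other vehicle pools, Rosi arrays lay above all 4, and LG268 arrays overlapped vehicle. The differences were 1.26 ± 0.17 with Rosi and 0.57 ± 0.17 with LG268 (adjusted p = 0.0352, lost without pools 12, 15, 19 and 20 at adjusted p = 0.0769 to 0.149). Echdc2 also rose by 0.83 with TBT, 1.11 with TPhP and 0.90 with MEHP. When only the arrays compared were fitted, these calls missed the threshold (adjusted p = 0.0722, 0.0528 and 0.0989). The low vehicle array of pool 12 enters each of these differences. Echdc3, a related protein, lay near background, with 16 of 52 arrays above 4.05. It rose by 1.58 ± 0.18 with Rosi, 0.67 ± 0.18 with TPhP (lost without pools 19 and 20 at adjusted p = 0.091 to 0.144) and 0.81 ± 0.18 with MEHP, all of uncertain size. Its highest mean was in day 4 Rosi cultures, and the filter may have passed it only through its high arrays. The Echdc3 calls are therefore no separate support.

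Whether the response grew between the days was tested as the day 4 difference from vehicle minus the day 1 difference. With Rosi the difference was larger at day 4 for 24 members and smaller for 1 (30.0% of all genes called). It was larger for 8 with TBT (1.77% of all genes called), 13 with TPhP (4.49%) and 18 with MEHP (6.36%), and smaller for 0. With LG268 0 members were called (0.0805% of all genes), also with the pool as a block, and 3 had an unadjusted p under 0.05. With the block it was larger for 12 members with TBT and 20 with MEHP, and smaller for 0. TPhP then gave 18 larger and 1 smaller, and Rosi 24 larger and 2 smaller. The TBT count was 0 without pool 15, 19 or 20 and 12 without pool 12. Without pool 19 the count was 0 with TPhP and 1 with MEHP, and without pool 20 it was 1 with each. When only the arrays compared were fitted, the counts were 6 with TBT, 6 with TPhP and 12 with MEHP.

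For Eci1 the Rosi difference grew by 2.07 ± 0.31, for Acot2 by 1.98 ± 0.38 and for Acadvl by 1.70 ± 0.28. With MEHP it grew by 1.70 ± 0.31 for Eci1 and 1.21 ± 0.24 for Acadm. With TPhP it grew by 1.52 ± 0.31 for Eci1 and 1.19 ± 0.32 for Cpt2. The 8 members called with TBT were Acadl, Acadm, Hadh, Hadha, Eci1, Cpt2, Crat and Echs1, which are dehydrogenases, hydration enzymes, an isomerase and carnitine transferases. Echdc2 was level, with a Rosi difference that changed by -0.18 ± 0.24 (adjusted p = 0.637). Acsl4 with LG268 changed by 0.26 ± 0.20 (adjusted p = 0.906).

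**Figure D4:**
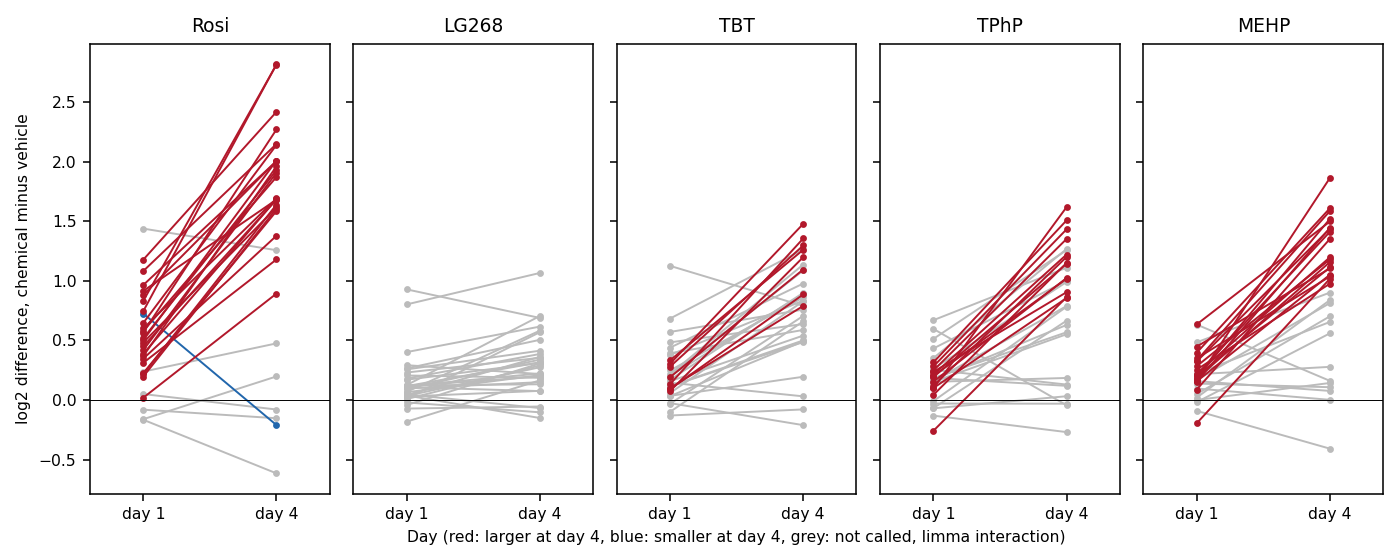
Difference from vehicle (vertical axis, log2) of the 31 genes at day 1 and day 4, 1 panel a chemical and 1 line a gene, in red where the difference was larger at day 4, in blue where it was smaller and in grey where it was not called. With Rosi 24 lines are red and 1, Cpt1a, is blue.

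Set directly against Rosi at day 4, the other chemicals gave lower levels of most members. With LG268 25 were lower and 3 higher (47.8% of all genes called), and with TBT 25 were lower and 4 higher (38.1%). With TPhP 25 were lower and 0 higher (28.2%), and with MEHP 23 were lower and 0 higher (26.1%). When only the arrays compared were fitted, 7 members were called with TPhP and 3 with MEHP. The members higher with both LG268 and TBT than with Rosi were Cpt1a, Acsl4 and Acsl5, and Acot1 was higher with TBT. Cpt1a was higher by 0.90 ± 0.15 with LG268 and 1.00 ± 0.15 with TBT. Acsl4 was higher by 0.87 ± 0.14 with LG268 and 0.56 ± 0.14 with TBT. Acadm lay -1.50 ± 0.17 from Rosi with LG268, -0.74 ± 0.17 with TBT and -0.57 ± 0.17 with TPhP. With MEHP the Acadm gap of -0.39 ± 0.17 missed the threshold (adjusted p = 0.0849, 95% interval -0.74 to -0.05) and passed it with the pool as a block (adjusted p = 0.0236). Rosi and LG268 were given at the same stated dose, TBT at another, and the doses of TPhP and MEHP are not given, so these gaps do not compare potency. These comparisons share the 4 Rosi arrays, and without the Rosi array of pool 15 the counts were 28 with LG268, 30 with TBT, 26 with TPhP and 26 with MEHP.

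At day 1 the gap to Rosi was narrower. With LG268 6 were lower and 1 higher (6.99% of all genes called, 14 members with the pool as a block), and with TBT 5 were lower and 1 higher (2.61%). With TPhP 5 were lower (2.32%), and with MEHP 2 were lower (1.88%, 6 members with the pool as a block). The higher one was Acsl4, by 0.96 ± 0.14 with LG268 and 0.73 ± 0.14 with TBT. Echdc2 and Hadh were lower with all 4 chemicals, Echdc2 by between -1.42 with LG268 and -0.77 with TPhP. The counts were small without single pools, at 2 with TBT without pool 15, 19 or 20, 2 with TPhP without pool 12 or 15 and 0 without pool 19 or 20. With MEHP they were 1 without pool 12, 15 or 19 and 0 without pool 20. When only the arrays compared were fitted, the counts were 21 with LG268, 13 with TBT, 10 with TPhP and 12 with MEHP.

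In vehicle cultures few members were called over time, and medium, DMSO and days in culture cannot be told apart there. From naive cells to day 4, 5 members rose and 1 fell (28.9% of all genes called). The difference was positive for 24 of the 31 and for 57.9% of all genes. Its median was 0.20 for the members and 0.05 for all genes. Acad11 read 7.26, 7.58, 7.96 and 7.95 in day 4 vehicle cultures, against 6.90, 6.76, 6.34 and 6.40 in naive cells, with no overlap and a rise of 1.09 ± 0.20 (adjusted p = 6.8e-05). The other rises were 0.53 ± 0.15 for Etfdh, 0.49 ± 0.13 for Acot13, 0.46 ± 0.13 for Ech1 and 0.42 ± 0.15 for Acsl5. Fabp3 read 8.41, 8.44, 8.27 and 8.19 in day 4 vehicle cultures, against 8.41, 8.65, 9.09 and 8.74 in naive cells, a fall of -0.39 ± 0.10 (adjusted p = 0.00266) that held in 3 of 4 pools. The day 4 fall was lost without pool 19 or 20, with the mean of its probe sets and when only the arrays compared were fitted. By day 1, 2 had risen, Echdc2 (0.62 ± 0.17) and Etfdh (0.43 ± 0.15), and Fabp3 had fallen (-0.28 ± 0.10), where 17.7% of all genes were called. After cyclic loess between arrays this split was 1 higher and 1 lower. The day 1 fall was lost without pool 15, 19 or 20 and without the filter. It was also lost with the mean of probe sets and when only the arrays compared were fitted. Between day 1 and day 4 only Acad11 rose, by 0.58 ± 0.20 (12.9% of all genes called), and with the pool as a block 2 members were called, Acot13 being the other. In the main fit the shares of members called lay below the share of all genes in each of these 3 comparisons. When only the arrays compared were fitted, this did not hold against naive cells. There 5 of 31 members and 2199 of 14911 genes were called at day 1, and 6 of 31 and 2093 of 14911 at day 4. The day 1 count was 0 without pool 19 or pool 20 and 5 with the pool as a block. The day 4 count was 2 without pool 19, 3 without pool 20 and 9 with the pool as a block. The count between the days was 0 without pool 15, 19 or 20.

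The genes around the pathway were read from other lists. Their counts, and those of the markers below, stand beside these shares of all genes called in either direction. At day 4 they were 49.1% with Rosi, 6.47% with LG268, 20.1% with TBT, 18.9% with TPhP and 23.8% with MEHP. At day 1 they were 7.25%, 0.241%, 0.543%, 0.215% and 0.523% in the same order. Of 16 genes of uptake and activation, 11 rose and 3 fell with Rosi at day 4, 6 rose and 1 fell with LG268, 10 rose and 2 fell with TBT, and 10 rose and 3 fell with each of TPhP and MEHP. Slc27a1, a fatty acid transporter, rose by 4.41 ± 0.32 with Rosi, and Cd36, the membrane fatty acid translocase, by 2.15 ± 0.16. Acss2, which activates acetate, rose by 3.55 ± 0.29, and Dbi, the acyl-CoA binding protein, by 1.50 ± 0.12. At day 1 5 of the 16 rose with Rosi, among them Slc25a20, the carnitine-acylcarnitine carrier of the inner membrane, by 0.72 ± 0.18.

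Of 20 regulators, 17 rose with Rosi at day 4, 2 with LG268, 11 with TBT, 12 with TPhP and 13 with MEHP, and 0 fell. Ppargc1a, the coactivator of mitochondrial genes, rose by 4.65 ± 0.30, a size that is uncertain because its vehicle arrays lay at background. Ppara, the PPAR of oxidative tissues, rose by 3.44 ± 0.33. Acaca, which makes the CPT1 inhibitor malonyl-CoA, rose by 2.83 ± 0.25, and Nrip1, a corepressor of oxidative genes, by 2.12 ± 0.16. At day 1 with Rosi 5 rose, among them Ppargc1b by 0.98 ± 0.22 and Pparg by 0.59 ± 0.14. Acaca also rose with LG268 at day 4, by 1.70 ± 0.25.

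Peroxisomes shorten chains that mitochondria do not take. Of 20 peroxisomal genes 16 rose with Rosi at day 4, 1 with LG268, 7 with TBT, 10 with TPhP and 11 with MEHP. Hsd17b4, the bifunctional enzyme of the peroxisomal cycle, rose by 1.47 ± 0.11, Pex11a, which divides peroxisomes, by 2.64 ± 0.21, and the thiolase Acaa1b by 3.51 ± 0.28. Ketone body enzymes moved in both directions. With Rosi 3 of 5 rose and 1 fell, among them Aacs, the acetoacetyl-CoA synthetase, by 2.08 ± 0.19, while Bdh1, β-hydroxybutyrate dehydrogenase, changed by -0.46 ± 0.16. With LG268 0 of the 5 rose and 2 fell, with TBT 2 rose and 2 fell, with TPhP 2 rose and 1 fell, and with MEHP 2 rose. All 14 enzymes of branched-chain and short acyl-CoA breakdown rose with Rosi, 14 with TPhP, 14 with MEHP, 12 with TBT and 0 with LG268. Mccc2, of leucine breakdown, rose by 2.27 ± 0.18 with Rosi and Hibch, of valine breakdown, by 2.63 ± 0.24.

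Downstream, all 31 respiratory chain genes rose with Rosi at day 4, 31 with TPhP, 30 with MEHP, 23 with TBT and 0 with LG268. Ndufs1, of complex I, rose by 1.72 ± 0.14 with Rosi, Cyc1, of complex III, by 2.14 ± 0.18, and Cox8b, a complex IV subunit of muscle and brown fat, by 6.09 ± 0.51. Of 19 genes of the tricarboxylic acid cycle, 18 rose with Rosi, 18 with TPhP, 18 with MEHP, 16 with TBT and 1 with LG268, among them Idh3a by 2.56 ± 0.21 with Rosi. Of 21 genes read as a gauge of mitochondrial mass, such as import and protease genes, 21 rose with Rosi, 17 with TPhP, 17 with MEHP, 6 with TBT and 0 with LG268. Lonp1, a matrix protease, rose by 1.63 ± 0.13 with Rosi. The medians with Rosi were 1.68 for the 31 oxidation genes, 1.32 for the respiratory chain, 1.42 for the tricarboxylic acid cycle and 0.81 for mitochondrial mass. With TBT they were 0.83, 0.44, 0.54 and 0.19 in the same order. At day 1 with Rosi 0 of 31 respiratory chain genes, 3 of 19 tricarboxylic acid cycle genes and 1 of 21 mitochondrial mass genes rose. Beside them 14 of 31 oxidation genes rose. Of 14 PPAR targets outside oxidation, 7 rose with Rosi at day 1. At day 4, 11 rose with Rosi, 7 with LG268, 9 with TBT (1 fell), 9 with TPhP and 10 with MEHP. Angptl4, an inhibitor of lipoprotein lipase, rose by 2.98 ± 0.18 with Rosi at day 1, and by 2.12 ± 0.18 with Rosi and 1.73 ± 0.18 with LG268 at day 4.

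Markers of other cell types moved with the members. Of 9 adipocyte markers, 9 rose with Rosi at day 4, 4 with LG268, 8 with TBT, 9 with TPhP and 9 with MEHP, with medians of 3.21, 1.07, 2.07, 2.23 and 2.40. At day 1 7 rose with Rosi, 1 with LG268, 3 with TBT, 2 with TPhP and 3 with MEHP. The summed linear level of the 9 ran from 17395 to 20666 with Rosi at day 4, from 4339 to 7518 with LG268, from 9325 to 15640 with TBT, from 10561 to 18627 with TPhP and from 10910 to 18546 with MEHP. In vehicle it ran from 1763 to 3464. Among the 9, Lep (above 4.05 on 10 of 52 arrays) and Cidea (18 of 52) lay near background. The part of fat cell number in the oxidation gene differences was not tested.

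**Figure D5:**
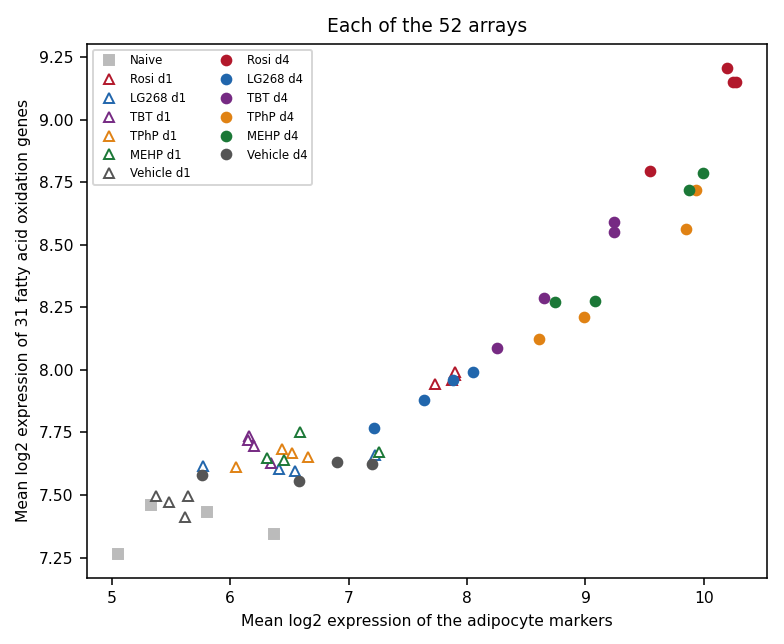
Mean level of the 31 oxidation genes (vertical axis, log2) against the mean level of 9 adipocyte markers (horizontal axis, log2), 1 point for each of the 52 arrays, coloured by group. Rosi arrays at day 4 lie at the top right, and the array at 9.54 and 8.79 is that of pool 15.

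Genes that mark brown fat, a tissue rich in oxidation enzymes, were read as well. Of 5 tested (1 of them, Cidea, also an adipocyte marker and 1, Ppargc1a, also in the regulator list), 5 rose with Rosi at day 4, 0 with LG268, 3 with TBT, 4 with TPhP and 4 with MEHP. Their summed level, with Dio2 included, ran from 787 to 3812 with Rosi, from 148 to 348 with TBT, from 163 to 442 with TPhP and from 187 to 783 with MEHP, against 79.0 to 110.0 in vehicle. The defining gene Ucp1, 1 of the 5 that rose with Rosi, lay above 4.05 on 4 of 52 arrays. That is the fewest the filter allowed, so Ucp1 was tested only through its few high arrays. Its call is therefore no separate support, and its size is uncertain. Elovl3 lay above 4.05 on 13 of 52 arrays, Cidea on 18 and Ppargc1a on 19, so the filter may have passed these through their high arrays too. Of the 5, only Cox7a1 lay above 4.05 on all 52 arrays. Of 4 endothelial markers, 4 rose with TBT at day 4, 2 with MEHP, 1 with Rosi, 1 with LG268 and 0 with TPhP (sum from 1277 to 1821 with TBT, against 461 to 763 in vehicle). Of 4 osteoclast markers tested, 4 fell with TBT and 3 with each other chemical (sum of 5 from 394 to 618 with TBT and from 436 to 883 with Rosi, against 997 to 1480 in vehicle). Of 5 neutrophil markers, 3 fell with LG268 and 3 with TBT (sum from 321 to 883 with LG268 and from 434 to 1247 with TBT, against 1059 to 3452 in vehicle). The 3 B cell markers with their own probe sets averaged 5.87 with TBT at day 4, 5.47 with MEHP and 5.34 with LG268. They averaged 5.03 with Rosi and 5.01 with TPhP, against 4.87 in vehicle. The part of these cells in the oxidation gene differences was not tested.

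Other markers fell with Rosi at day 4. Stromal markers fell in 8 of 10 (summed level from 6211 to 8233 with Rosi, against 10185 to 18518 in vehicle), macrophage markers in 7 of 7 (3777 to 10051 with Rosi, against 10719 to 14458 in vehicle) and osteoblast markers in 5 of 7 (885 to 2677 with Rosi, against 4677 to 9428 in vehicle). With TBT 3 stromal markers fell and 1 rose, 1 macrophage marker fell and 4 osteoblast markers fell. With LG268 2 stromal markers rose, 0 macrophage markers were called and 1 osteoblast marker fell. With TPhP 4 stromal, 1 macrophage and 3 osteoblast markers fell, and with MEHP 3 stromal, 0 macrophage and 4 osteoblast markers fell. Of 4 muscle markers tested, 0 were called with any chemical at day 4, and their sum with all 5 ran from 121 to 176 with Rosi and from 108 to 145 in vehicle. Across the 13 groups the mean of the 31 oxidation genes was 9.07 with Rosi at day 4, 8.51 with MEHP, 8.40 with TPhP, 8.38 with TBT and 7.90 with LG268, against 7.60 in vehicle. The array means of Rosi (8.79 to 9.21) lay above those of TPhP (8.12 to 8.72) and TBT (8.09 to 8.59), and just above those of MEHP (8.27 to 8.79). TBT, TPhP and MEHP overlapped each other, and LG268 (7.77 to 7.99) lay below them and above vehicle (7.56 to 7.63). How far the change in cell types carries these levels was not tested.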

How the data were processed

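The values deposited by the authors are on a log2 scale and cover 41345 probe sets on 52 arrays. Per the submitters' processing notes, the authors used oligo in R 3.3.1. How they corrected background and normalized between arrays is not given in the sources used here. Of the probe sets, 23521 carried 1 gene, 1814 several and 16010 were unnamed, and only the first kind was used. A limma fit of the 13 group means to all 52 arrays gave every comparison (39 residual and 3.45 prior degrees of freedom, two-sided, 95% intervals), with Benjamini-Hochberg adjustment over 14911 genes and a threshold of 0.05. SEs pool the spread over all 13 groups. The labels say that each pool of animals was 1 experiment, so p-values measure the spread between pools as read from the title numbers and source names. Results of the fit with the pool as a replicate block are printed for most of the calls against vehicle that they change. Counts are printed where the block shifts them by a factor above 1.5, and for some smaller shifts. After subtraction of group means, the pool with the highest correlation was an array's own for 43 of 52 arrays, and 233 of 312 same-pool pairs exceeded 0.1.

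The members and gene lists were chosen with earlier results of these data known. Values of single arrays were given for the members with the 6 smallest adjusted p against vehicle and for a set of defining members, and in other lists up to 4 genes with the smallest adjusted p could be named. A list is described by its counts and median, with no set test. Results were recomputed with the replicate block, on just the groups in question, after cyclic loess, with the mean of a gene's probe sets, without the filter, with a stricter one (the table's 75th percentile, 6.34), with each pool left out, and without 1 array, the last chosen after seeing the data. Promoter windows came from a RefSeq table of build GRCm38.p6, and a genome was not used here. The script was tested on simulated data. The work used Python 3.11.15 (matplotlib 3.10.9, numpy 2.4.6, pandas 2.3.3) and R 4.3.3 with the packages limma 3.58.1 and data.table (1.17.8).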

Additional observations from a re-analysis of the deposited data

Results flagged for a closer look

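Among the 403 sets of 4 arrays (31 genes in 13 groups), 29 had 1 array set far apart from the other 3, where chance sets apart about 5%. Of these, 10 were the Rosi array of pool 15 at day 4, low each time. The genes were Acadl (11.08, next array 11.42), Acads (8.76, next array 9.39), Acadvl (9.53, next array 10.24), Acaa2 (9.63, next array 10.38) and Hadh (10.93, next array 11.42). The others were Eci1 (9.68, next array 10.36), Decr1 (7.80, next array 8.26), Etfdh (10.32, next array 10.85), Acad11 (8.72, next array 9.52) and Crat (10.34, next array 10.98). Without that array the count of members called with Rosi at day 4 stayed at 27. Elsewhere 12 arrays were low, among them Acadm with TPhP at day 1 (pool 12, 9.50, next 10.04), Acaa2 with TBT at day 1 (pool 20, 8.24, next 8.33), Eci2 in vehicle at day 1 (pool 20, 7.15, next 7.30), Cpt1a with TBT at day 1 (pool 20, 8.95, next 9.24), Etfa in naive cells (pool 12, 8.18, next 8.44) and Etfb in vehicle at day 1 (pool 12, 7.93, next 8.11). To these came Acot2 with Rosi at day 1 (pool 20, 8.82, next 9.0), Acot13 with LG268 at day 4 (pool 19, 7.77, next 8.04), Acsl4 with Rosi at day 4 (pool 12, 8.32, next 8.82), Acad12 with TBT at day 1 (pool 20, 4.27, next 4.63), Echdc2 in vehicle at day 4 (pool 12, 5.67, next 6.76) and Echdc3 with TPhP at day 1 (pool 20, 3.52, next 3.60). High arrays were 7, among them Hadhb in naive cells (pool 20, 4.27, next 3.62), Eci1 with Rosi at day 1 (pool 15, 8.00, next 7.78), Eci2 with TBT at day 1 (pool 19, 7.51, next 7.35), Cpt1a in vehicle at day 4 (pool 12, 8.88, next 8.25), Acsl5 with TPhP at day 1 (pool 15, 9.18, next 9.0) and Acsl5 with TBT at day 4 (pool 12, 9.25, next 9.07). The last was Echdc3 with LG268 at day 1 (pool 20, 4.04, next 3.62).

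The difference from vehicle was not the same on the 2 days for many members, by the test of the day 4 difference minus the day 1 difference. It differed for 25 members with Rosi, 8 with TBT, 13 with TPhP and 18 with MEHP (limma, adjusted p under the threshold). In the main fit Cpt1a with Rosi was the one member whose difference was smaller at day 4.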

How the results depend on the processing

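The results against vehicle kept their direction under every alternative tried. Of 128 member results past the threshold, the alternatives gave 1266 values, of which 1173 stayed past it, 93 did not and 0 turned sign. Of 260 values of the members' median, 257 moved by less than the spread between pools. Part of this was fixed in advance. The replicate block leaves each difference unchanged because every pool occurs once in every group. Fitting only the arrays compared changes the SE but not the difference. Removing the filter leaves the members and their differences as they were, as all 31 had passed it. Leaving out 1 pool keeps most of the arrays behind each mean. The signs and medians are therefore a weak check. The counts called with Rosi, TBT, TPhP and MEHP at day 4 stayed within 1.5 times under every alternative. With the replicate block the count was 5 for vehicle at day 1 against naive cells, 2 for vehicle between the days, 1 for TPhP and 2 for MEHP at day 1, and against Rosi at day 1 it was 14 for LG268 and 6 for MEHP. The block moved the other counts by no more than 1.5 times.

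A fit of only the arrays compared estimates the spread from fewer arrays and from those groups alone, and the groups differed in spread. With it the count was 5 for vehicle at day 1 against naive cells, 4 for TPhP and 6 for MEHP at day 1. It was 3 for LG268 at day 4 and 6 for TPhP between the days. Against Rosi it was 21 for LG268, 13 for TBT, 10 for TPhP and 12 for MEHP at day 1, and 7 for TPhP and 3 for MEHP at day 4. Cyclic loess gave 2 for vehicle between the days, 1 for TPhP at day 1 and 4 for TBT between the days. With no filter it was 1 for vehicle at day 1 against naive cells, 0 for vehicle between the days, 4 for TBT between the days and 1 for MEHP against Rosi at day 1. The stricter filter, which tests fewer genes, gave 2 for vehicle between the days, 2 for MEHP at day 1 and 11 for LG268 against Rosi at day 1. The cause of these shifts was not tested.

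With 1 pool left out in turn, counts against vehicle ran from 8 to 11 with Rosi, 1 to 2 with LG268, 1 to 2 with TBT, 0 to 1 with TPhP and 0 to 2 with MEHP at day 1. At day 4 they ran from 27 to 28, 2 to 7, 20 to 26, 19 to 25 and 24 to 26 in the same order. Between the days they ran from 25 to 27 with Rosi, 0 to 12 with TBT, 0 to 18 with TPhP and 1 to 19 with MEHP, and stayed at 0 with LG268. Against Rosi they ran from 5 to 7 with LG268, 2 to 5 with TBT, 0 to 2 with TPhP and 0 to 1 with MEHP at day 1, and from 27 to 28, 24 to 29, 20 to 25 and 19 to 23 at day 4 (28, 30, 26 and 26 without the Rosi array of pool 15 alone). Vehicle against naive cells gave 0 to 3 at day 1 and 2 to 8 at day 4, and vehicle between the days 0 to 1. Levels near background limit Hadhb, Echdc3, Acad12 and Acot1.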
